A study of Mus musculus with 2 samples.

Results

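The genes of 7 claudins (Cldn1, Cldn2, Cldn3, Cldn4, Cldn7, Cldn12 and Cldn14), of occludin (Ocln) and of the scaffold protein ZO-1 (Tjp1) were followed in mouse liver. They were chosen by symbol as the epithelial tight junction genes, and these 9 genes were found among the 52636 Ensembl genes of the count tables through the GENCODE annotation of GRCm38. The livers came from Gbp5 knockout (KO, labelled GBP5-/-) mice and wild-type (WT) mice, both C57BL/6 and 9 weeks old. Both genotypes had been given D-galactosamine (800 µg per g body weight) together with lipopolysaccharide (100 ng per g) and were sampled after 6 h. RNA of 4 livers was pooled per genotype and sequenced as 1 library each, so no replicate spread, standard deviation or p-value exists for any value below. The intervals given are 95% counting intervals, and differences between animals, between pools and between library preparations are not in them. No untreated liver was analysed here, and the labels do not say how the knockout was made.

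Tight junctions close the gap between neighbouring epithelial cells near their apical edge. In liver they separate the bile canaliculus from the blood side, and they also seal the bile duct lining. Claudins are the membrane proteins that form the junction strands and set which ions pass between cells. Occludin lies in the same strands and bears on their stability, and ZO-1 ties both to the actin cytoskeleton. D-galactosamine depletes uridine nucleotides in hepatocytes, which makes the liver sensitive to lipopolysaccharide, a bacterial endotoxin. Gbp5 encodes an interferon-inducible GTPase of the guanylate-binding protein family.

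The libraries held 15750875 reads in genes in KO and 19864848 in WT, so a count of 3 reads stood for 0.190 CPM in KO and 0.151 CPM in WT, CPM being counts scaled to library size. Gbp5 itself had 873 reads in KO and 3211 in WT, which was 34.3% of the WT level (31.8% to 37.0%). Reads thus remained in the library labelled GBP5-/-, and without knowing which part of the gene was deleted this value does not settle that label. The 9 Kupffer cell markers, summed, were 2.38-fold lower in the same library. All 12 hepatocyte markers were expressed in both libraries, and Alb had 69250 CPM in KO and 38384 CPM in WT. Over 13453 genes with a mean of at least 1 CPM, the log2 ratio of KO to WT had a median of -0.07 and went with GC content. When genes were put in 10 bins by GC content, the median was 0.28 in the bin with the least GC and -0.87 in the bin with the most. At 2-fold, 441 genes were higher and 1589 lower in KO. After a correction for GC content and transcript length these counts were 521 and 806.

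Occludin stood highest. Of the 9 genes, 8 had a ratio of KO to WT above 1, against 45.5% of all genes, and the remaining one, Cldn4, lay below it. The 8 include Cldn1, whose interval of 0.835 to 1.43 includes 1. At 2-fold only Ocln was higher in KO, 1 of 9 where 3.28% of all genes were, and none was lower, where 11.8% of all genes were. At 1.5-fold 3 of 9 were higher, namely Ocln, Cldn2 and Cldn7, against 10.9% of all genes, and none was lower, against 24.3%. The median log2 ratio of the 9 genes was 0.35. All 9 passed the filter of 1 CPM, and each had 3.27 CPM or more in both libraries. In bulk liver, fewer cells of a type and less RNA per cell cannot be told apart.

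**Figure D1:**
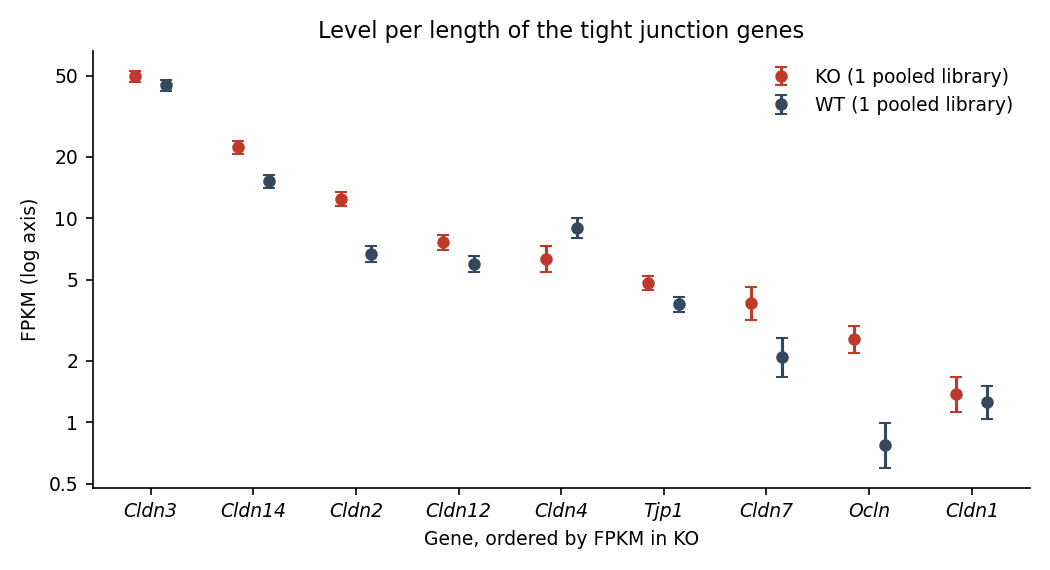
FPKM (CPM per kilobase of exon, log axis) of each gene in the KO library (red, left) and the WT library (blue, right), with bars for the 95% Poisson interval of the read count. Cldn3 was the highest in both libraries, at 49.7 in KO and 44.9 in WT, and Ocln was the lowest in WT at 0.775.

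Levels between genes were compared per length, as FPKM, with the union of each gene's exons as its length. In KO the order was Cldn3, Cldn14, Cldn2, Cldn12, Cldn4, Tjp1, Cldn7, Ocln and Cldn1. The counting intervals of Cldn12 and Cldn4 overlapped there, as did those of Tjp1 and Cldn7, so neither pair was ordered by depth alone. In WT the order was Cldn3, Cldn14, Cldn4, Cldn2, Cldn12, Tjp1, Cldn7, Cldn1 and Ocln, and Cldn2 and Cldn12 overlapped. Cldn4 stood at place 5 in KO and at place 3 in WT, and Ocln at place 8 in KO and at place 9 in WT.

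Ocln (ENSMUSG00000021638, chromosome 13, 100496507 to 100552718, minus strand) had 170 reads in KO and 65 in WT. These were 10.8 and 3.27 CPM, a ratio of 3.30 with an interval of 2.46 to 4.46, and 132 of the 13453 genes had a higher ratio. Per length, Ocln stood at 2.56 FPKM in KO and 0.775 FPKM in WT, and the Poisson intervals did not overlap (2.19 to 2.97 in KO, 0.598 to 0.988 in WT). After the GC and length correction its log2 ratio was 1.48, against 1.72 without. The estimate rests on 235 reads in both libraries together.

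Tjp1 (ENSMUSG00000030516, chromosome 7, 65296165 to 65527781, minus strand) encodes the scaffold to which claudins and occludin bind. It had 592 reads in KO and 587 in WT, or 37.6 and 29.5 CPM, a ratio of 1.27 (1.13 to 1.43). Occludin and its scaffold thus differed in how far they stood from WT. Ocln had 0.531 FPKM per FPKM of Tjp1 in KO and 0.205 in WT, a quotient of 2.59 (1.89 to 3.59) that does not depend on how the libraries are scaled. It is not corrected for GC content, which was 42.0% in Ocln and 46.8% in Tjp1, or for length. With the correction the log2 ratios lay closer, at 1.48 for Ocln and 0.31 for Tjp1, against 1.72 and 0.35 without. Marveld2 encodes tricellulin, a relative of occludin found where cell corners meet. It had 95 reads in KO and 71 in WT, a ratio of 1.69 (1.23 to 2.33), and the quotient of Ocln to Marveld2 was 1.95 (1.26 to 3.04). That quotient is not corrected either, and with the correction the log2 ratio of Marveld2 was 0.74, against 0.75 without.

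Cldn2 (ENSMUSG00000047230, chromosome X, 139800828 to 139811386, plus strand) encodes a claudin that forms pores for cations and water. In mouse liver it is expressed in hepatocytes and is known to bear on bile flow. It had 654 reads in KO and 442 in WT, or 41.5 and 22.3 CPM, a ratio of 1.87 (1.65 to 2.11). Of all genes 4.34% had a higher ratio. Its log2 ratio of 0.90 became 0.88 after the correction and 1.003, a 2-fold call, with totals that leave out the 50 most abundant genes. Relative to Cldn3, Cldn2 had 0.251 FPKM per FPKM in KO and 0.149 in WT, a quotient of 1.68 (1.45 to 1.96). This quotient is not corrected for GC content, which was 48.8% in Cldn2 and 62.7% in Cldn3. With the correction the log2 ratios lay closer, at 0.88 for Cldn2 and 0.64 for Cldn3, against 0.90 and 0.15 without.

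Cldn2 is known in mouse liver for a gradient toward the central vein. Of the 10 genes listed as pericentral 9 were over the filter, with 4 above and 5 below a ratio of 1. Of all genes 45.5% were above 1, and the median log2 ratio of the 9 was -0.14. Glul, glutamine synthetase, had 11798 reads in KO and 13177 in WT, a ratio of 1.13 (1.10 to 1.16). Oat, ornithine aminotransferase, was 1.91-fold lower (1.86 to 1.97). The 10 periportal genes had a median of 0.34, with Hal 1.80-fold higher and Pck1 1.55-fold lower.

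Cldn3, Cldn14 and Cldn1 are counted among the claudins that tighten the junction. Cldn3 (ENSMUSG00000070473, chromosome 5, 134986214 to 134987472, plus strand) had 986 reads in KO and 1122 in WT. Its 62.6 CPM in KO and 56.5 CPM in WT gave a ratio of 1.11 (1.02 to 1.21). Cldn14 (ENSMUSG00000047109, chromosome 16, 93919031 to 94008837, minus strand) limits the passage of cations and is known from inherited deafness and from kidney calcium handling. It had 747 reads in KO and 641 in WT, or 47.4 and 32.3 CPM, a ratio of 1.47 (1.32 to 1.64). The quotient of Cldn14 to Cldn3 was 1.33 (1.15 to 1.52).

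Cldn12 (ENSMUSG00000046798, chromosome 5, 5489537 to 5514958, minus strand) encodes a claudin that lacks the usual binding motif for ZO-1 at its end. It had 508 reads in KO and 503 in WT, or 32.3 and 25.3 CPM, a ratio of 1.27 (1.12 to 1.44). Cldn12 and Tjp1 had nearly the same log2 ratio, 0.35 each. Cldn1 (ENSMUSG00000022512, chromosome 16, 26356642 to 26371841, minus strand) encodes a barrier claudin that in humans also serves as a receptor for hepatitis C virus. It had 105 reads in KO and 121 in WT, or 6.67 and 6.09 CPM, a ratio of 1.09 whose interval of 0.835 to 1.43 includes 1. Its log2 ratio was 0.13 and changed sign after the correction, to -0.18, so no direction is given for Cldn1. The quotient of Cldn2 to Cldn1 was 1.70 (1.27 to 2.30).

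Cldn4 and Cldn7, which in liver are known from bile duct epithelium, stood on opposite sides. Cldn4 (ENSMUSG00000047501, chromosome 5, 134945119 to 134946934, minus strand) had 181 reads in KO and 324 in WT, or 11.5 and 16.3 CPM. It was 1.42-fold lower in KO (1.18 to 1.71), and 1.20-fold lower after the correction. Cldn7 (ENSMUSG00000018569, chromosome 11, 69964779 to 69967885, plus strand) encodes a claudin that binds EpCAM on the lateral membrane. It had 118 reads in KO and 81 in WT, or 7.49 and 4.08 CPM, a ratio of 1.84 (1.37 to 2.47). With the correction the ratio of Cldn7 was 2.17, past 2-fold.

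Cldn4 had 1.65 FPKM per FPKM of Cldn7 in KO and 4.29 in WT, which is 2.60-fold lower (1.84 to 3.70). The 2 genes have nearly the same GC content, 56.8% and 57.0%. Cldn4 and Cldn3 lie 39279 bases apart on chromosome 5 in opposite orientation, and their quotient was 1.57-fold lower in KO (1.28 to 1.94). This quotient is not corrected for GC content, which was 62.7% in Cldn3. With the correction the log2 ratios lay further apart, at -0.26 for Cldn4 and 0.64 for Cldn3, against -0.51 and 0.15 without. Epcam, the gene of the Cldn7 partner, had 237 reads in KO and 138 in WT, a ratio of 2.17 (1.75 to 2.69). The quotient of Cldn7 to Epcam was 0.849 with an interval of 0.588 to 1.23.

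**Figure D2:**
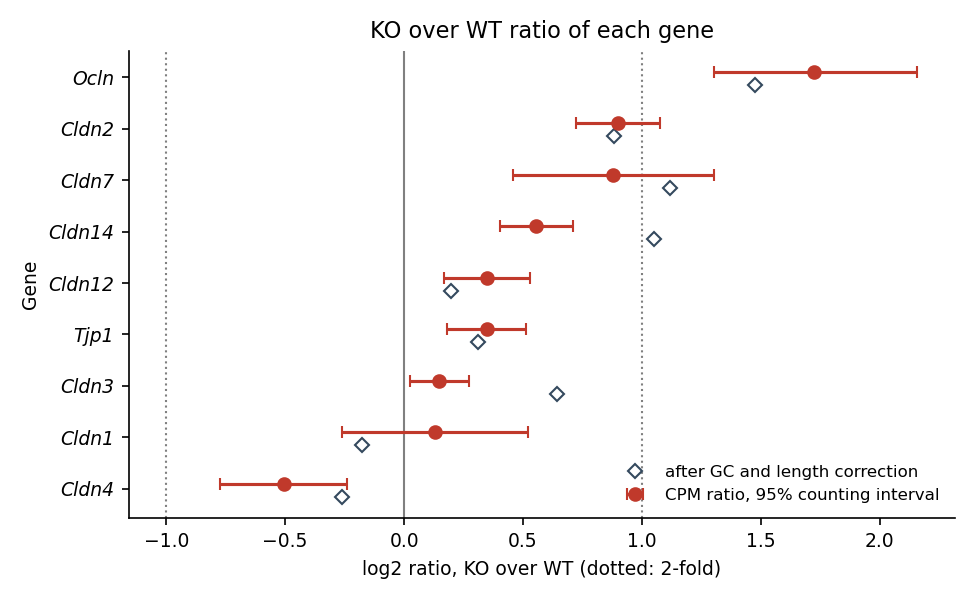
Log2 ratio of CPM in KO over WT for each gene (red points, bars for the 95% counting interval) and the same after correction for GC content and length (open diamonds); dotted lines mark 2-fold. Ocln lies beyond 2-fold at 1.72, Cldn4 lies at -0.51, and Cldn7 and Cldn14 pass 2-fold with the correction, at 1.12 and 1.05.

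Promoter windows are shown for Ocln, Cldn2 and Cldn7, whose ratios of KO to WT were the highest, for Cldn4, the lowest, and for its neighbour Cldn3. Each is the RefSeq window on GRCm38.p6 from 250 bases before to 50 after the start site farthest upstream, written 5′ to 3′ on the strand of the gene. Windows were found for all 9 genes. Capitals mark CACCTG (the E-box form bound by Snail proteins), TGANTCA (the AP-1 site), AACCGGTT (the Grainyhead site) and GGGCGG (the GC box), read on both strands; no matches overlap in these windows.
Ocln (chr13:100552669-100552968, minus strand): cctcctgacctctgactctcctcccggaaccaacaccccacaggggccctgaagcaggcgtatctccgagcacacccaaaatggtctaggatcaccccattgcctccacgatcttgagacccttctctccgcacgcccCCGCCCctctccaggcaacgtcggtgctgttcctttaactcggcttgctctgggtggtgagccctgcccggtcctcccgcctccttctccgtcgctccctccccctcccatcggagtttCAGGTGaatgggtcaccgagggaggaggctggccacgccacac
Cldn2 (chrX:139800558-139800857, plus strand): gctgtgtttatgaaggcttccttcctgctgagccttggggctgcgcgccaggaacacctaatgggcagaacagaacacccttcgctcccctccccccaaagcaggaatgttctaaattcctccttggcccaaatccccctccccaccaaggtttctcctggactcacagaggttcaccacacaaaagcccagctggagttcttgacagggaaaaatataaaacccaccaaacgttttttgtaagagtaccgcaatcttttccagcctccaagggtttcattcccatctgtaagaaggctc
Cldn7 (chr11:69964529-69964828, plus strand): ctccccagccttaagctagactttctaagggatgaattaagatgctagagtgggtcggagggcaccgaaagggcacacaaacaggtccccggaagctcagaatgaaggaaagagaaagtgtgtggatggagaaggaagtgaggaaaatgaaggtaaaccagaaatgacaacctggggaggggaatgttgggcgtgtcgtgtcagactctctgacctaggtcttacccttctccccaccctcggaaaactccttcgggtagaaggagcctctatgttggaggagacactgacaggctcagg
Cldn4 (chr5:134946885-134947184, minus strand): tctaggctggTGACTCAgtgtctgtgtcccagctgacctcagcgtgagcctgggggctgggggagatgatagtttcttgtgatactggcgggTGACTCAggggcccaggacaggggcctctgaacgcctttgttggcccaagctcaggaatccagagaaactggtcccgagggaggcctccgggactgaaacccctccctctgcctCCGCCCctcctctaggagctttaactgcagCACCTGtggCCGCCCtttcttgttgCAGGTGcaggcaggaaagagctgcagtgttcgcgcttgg
Cldn3 (chr5:134985964-134986263, plus strand): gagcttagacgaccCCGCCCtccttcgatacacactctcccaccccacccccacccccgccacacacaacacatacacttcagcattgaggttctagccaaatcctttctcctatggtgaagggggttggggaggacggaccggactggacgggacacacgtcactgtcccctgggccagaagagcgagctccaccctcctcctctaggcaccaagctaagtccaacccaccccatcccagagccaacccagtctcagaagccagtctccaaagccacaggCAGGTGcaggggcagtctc

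The window of Cldn4 held both matches to TGANTCA found in the 9 windows, and 7.92% of 27025 gene windows of that length held at least 1. CACCTG was found in the windows of Ocln, Cldn3 and Cldn4, against 20.05% of gene windows, with 2 matches in Cldn4, at -14 and at 11 from the start. GGGCGG was found in 5 of 9 windows, against 35.9%. Cldn2 alone had TATAAA, at -35, against 14.2% of gene windows. No window held AACCGGTT (0.155% of gene windows), CAAAGTCCA of HNF4 (0.474%) or TTCNNNGAA of STAT factors (8.42%). The windows of Cldn2 and Cldn7 held none of the capitalised letters. These matches describe the letters only.

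Ratios of the 9 genes were also set beside their GC content, since the libraries differed along it. Transcript GC content ran from 39.0% in Cldn1 to 62.7% in Cldn3. Cldn7, Cldn14 and Cldn3, at 57.0%, 59.3% and 62.7%, lay above the median of their GC bin, which was -0.52 for Cldn7 and -0.87 for the other pair. Their log2 ratios of 0.88, 0.56 and 0.15 became 1.12, 1.05 and 0.64 after the correction. Cldn4, in the same bin as Cldn7, lay at the median of that bin, at -0.51. Of the 9 genes, 3 were at least 2-fold higher after the correction, namely Ocln, Cldn7 and Cldn14, against 3.87% of all genes. None was 2-fold lower, against 5.99%. Their median was then 0.64, with 7 above 0, against 50.1% of all genes. Any genuine difference tied to base composition or transcript length is lost in such a correction too.

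**Figure D3:**
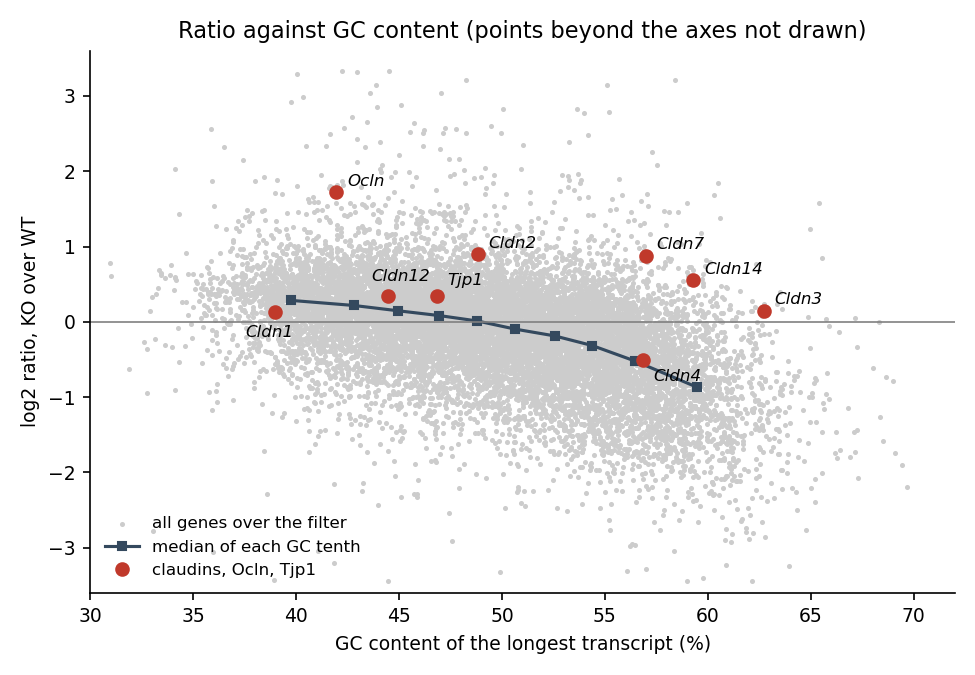
Log2 ratio of KO over WT against GC content of the longest transcript for genes with a mean CPM of at least 1 (grey), the median of each of 10 GC bins (blue squares) and the 9 tight junction genes (red). The medians run from 0.28 to -0.87, and Cldn14 and Cldn3 lie at 0.56 and 0.15 in the bin with a median of -0.87.

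The make-up of the claudin transcripts differed mainly through Cldn5. Of 33 claudin genes in the tables, 13 had no read in either library and 8 reached 1 FPKM in at least 1 of them. All claudins together summed to 115.9 FPKM in KO and 109.1 FPKM in WT, a ratio of 1.06. The 7 claudins followed here summed to 103.7 FPKM in KO and 85.0 FPKM in WT, a ratio of 1.22. Their share of the claudin sum was 89.4% in KO and 77.9% in WT. Cldn3 held 42.9% of the sum in KO and 41.1% in WT, Cldn14 19.2% and 13.9%, Cldn2 10.8% and 6.13%, and Cldn4 5.46% and 8.23%. These sums and shares are not corrected for GC content, which was 62.7% in Cldn3, 59.3% in Cldn14 and 60.5% in Cldn5. With the correction their log2 ratios were 0.64, 1.05 and -0.80, against 0.15, 0.56 and -1.30 without.

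Cldn5 (chromosome 16), the claudin of endothelium, held 7.89% of the sum in KO and 20.6% in WT. It had 204 reads in KO and 632 in WT, or 13.0 and 31.8 CPM, 2.46-fold lower (2.09 to 2.89). After the correction it was 1.75-fold lower, short of 2-fold. Cdh5, the cadherin of endothelial junctions, was 1.68-fold lower (1.59 to 1.78), and the quotient of Cldn5 to Cdh5 was 1.46-fold lower in KO (1.23 to 1.74). That quotient is not corrected for GC content, which was 60.5% in Cldn5 and 52.2% in Cdh5. With the correction Cdh5 was 1.55-fold lower, near the 1.75-fold of Cldn5. Of 11 endothelial markers, 9 were below a ratio of 1 and 2 above, where 45.5% of all genes were above. Their summed levels were 653 CPM in KO and 907 CPM in WT. With the correction 6 were below and 5 above, where 50.1% of all genes were above. Their median log2 ratio was then -0.07, against -0.23 without. Tie1 was 2.05-fold lower, and 1.23-fold lower with the correction, while Kdr and Tek were 1.32-fold and 1.36-fold higher. The part of endothelial cell number in the value of Cldn5 was not tested.

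The remaining claudins were near the limit of detection. Cldn8 had 21 reads in KO and 5 in WT, a ratio of 5.30 (1.94 to 17.98). Cldn6 had 25 reads in KO and 19 in WT, Cldn15 had 19 and 13, and Cldn23 had 15 and 14, and the intervals of these 3 ratios include 1. Cldnd1, a claudin-domain gene, had 378 reads in KO and 455 in WT, a ratio of 1.05 (0.912 to 1.20).

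**Figure D4:**
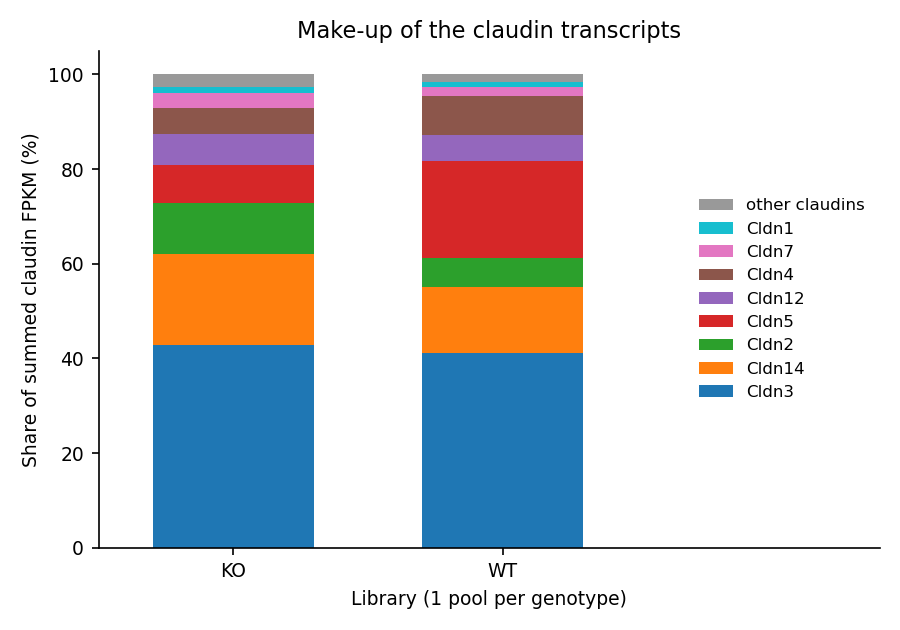
Share of the summed FPKM of all claudin genes held by each claudin in the KO library (left) and the WT library (right). Cldn5 takes 7.89% in KO and 20.6% in WT, and Cldn3 is the largest share in both. Shares are not corrected for GC content.

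Among the other transmembrane proteins of tight junctions, none of 12 genes passed 2-fold, where 3.28% of all genes were higher and 11.8% lower. Their median log2 ratio was 0.12, with 8 above 0, against 45.5% of all genes. Marveld2 and Cxadr, the coxsackievirus and adenovirus receptor, were the highest. Cxadr had 1035 reads in KO and 792 in WT, a ratio of 1.65 (1.501 to 1.81). Esam, an adhesion molecule of endothelium, was 1.40-fold lower (1.29 to 1.52), and Marveld3 had 25 reads in KO and 40 in WT, with an interval that includes 1. F11r and Lsr, abundant in hepatocytes, had ratios of 1.10 and 1.09.

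Of 26 genes of the cytoplasmic plaque and of cell polarity, 18 were below a ratio of 1 and 8 above, where 45.5% of all genes were above. After the correction 11 were below and 14 above, where 50.1% of all genes were above. The median of the 26 genes was -0.30, and 0.07 after the correction. Of these genes, 4 were at least 2-fold lower, where 11.8% of all genes were, and 1 was at least 2-fold higher, where 3.28% were. Arhgef2, a guanine nucleotide exchange factor that cingulin binds, had 168 reads in KO and 723 in WT, 3.41-fold lower (2.88 to 4.06). Ybx3, a Y-box protein that binds ZO-1, was 2.81-fold lower, Micall2 2.74-fold and Sympk 2.62-fold. Ybx3 and Arhgef2 still passed 2-fold after the correction, at log2 ratios of -1.003 and -1.13, whereas Micall2 and Sympk lay at -0.53 and -0.36.

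Tjp3, a paralogue of Tjp1, had 309 reads in KO and 656 in WT, 1.68-fold lower (1.47 to 1.93). After the correction the log2 ratios were 0.31 for Tjp1 and 0.17 for Tjp3. Cgn, cingulin, was 1.84-fold lower (1.61 to 2.11), with a corrected log2 ratio of -0.36.

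Patj, a polarity scaffold of the Crumbs complex, was the plaque gene at least 2-fold higher, with 187 reads in KO and 101 in WT, a ratio of 2.34 (1.82 to 3.005). Its partner Mpp5, known as PALS1, had 190 reads in KO and 121 in WT, a ratio of 1.98 (1.57 to 2.51). Of 64 genes in 6 fixed junction lists, Patj and Amot lay nearest to Ocln in log2 ratio, at distances of 0.50 and 0.73. Amot, angiomotin, had 123 reads in KO and 78 in WT. Nearest to Cldn4 were Esam and Pkp4, at distances of 0.020 and 0.023. With 2 libraries this distance is the only measure of likeness.

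**Figure D5:**
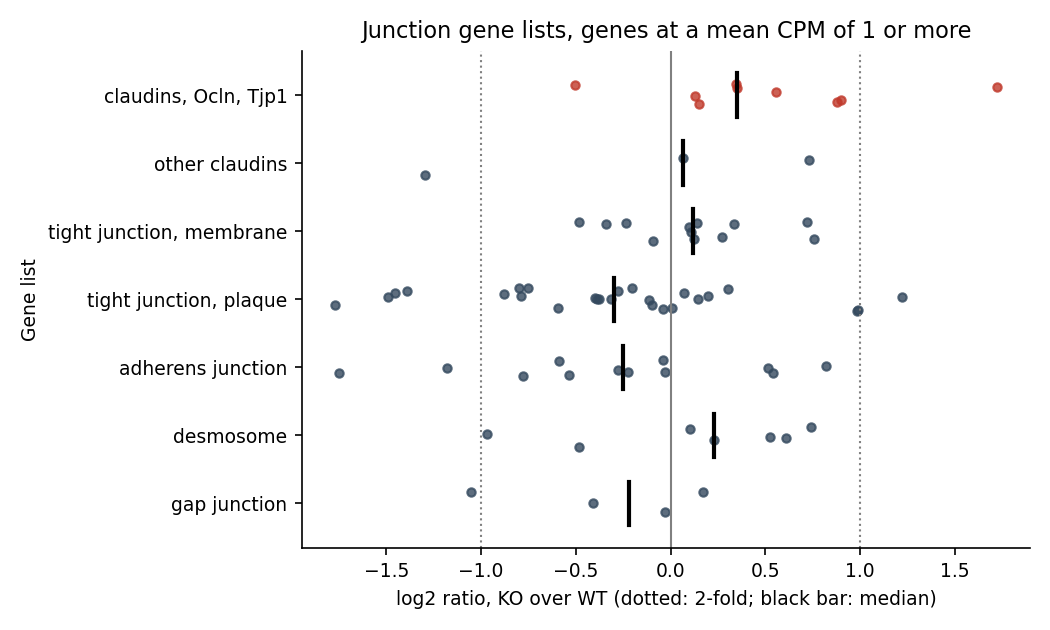
Log2 ratio of KO over WT for each gene of the fixed junction lists with a mean CPM of at least 1, with black bars for medians and dotted lines at 2-fold. The claudin, Ocln and Tjp1 row has a median of 0.35, and the plaque row one of -0.30, or 0.07 after the correction.

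Adherens junctions had 9 of 12 genes below a ratio of 1 and 3 above, where 45.5% of all genes were above. After the correction 6 were below and 6 above, where 50.1% of all genes were above. The median of the 12 genes was -0.25, and 0.08 after the correction. Nectin4 was 3.37-fold lower on 12 reads in KO and 51 in WT, and 2.74-fold lower with the correction. It passed the filter through WT alone, at 0.762 CPM in KO and 2.57 CPM in WT. Plekha7 was 2.26-fold lower (1.62 to 3.21), with a corrected log2 ratio of -0.15. No other of the 12 was 2-fold lower without the correction, where 11.8% of all genes were. Cdh1, E-cadherin, had 1332 reads in KO and 952 in WT, a ratio of 1.76 (1.62 to 1.92), and Jup, plakoglobin, had a ratio of 1.46. With the correction the ratios of Cdh1 and Jup were 2.03 and 3.24, both past 2-fold, where 3.87% of all genes were higher. Desmosome genes had a median of 0.23 with none of 7 past 2-fold, where 3.28% of all genes were higher and 11.8% lower. Dsc2 and Pkp2 were the highest, at 1.67 and 1.52, and Pkp3 and Pkp4 the lowest, 1.96-fold and 1.40-fold lower. With the correction Pkp3 and Pkp4 were only 1.03-fold and 1.11-fold lower. Dsc2 and Pkp2 then had ratios of 1.47 and 1.55 and were no longer the 2 highest. Of 4 gap junction genes over the filter, Gja4, an endothelial connexin, was 2.07-fold lower (1.91 to 2.25) and Gjb1, the main hepatocyte connexin, 1.33-fold lower. Gjb2 and Gja1 had ratios of 1.13 and 0.980. After the correction none of these 4 passed 2-fold, where 3.87% of all genes were higher and 5.99% lower.

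Markers of other epithelia stood beside these values. Of 12 bile duct markers 11 were over the filter and 9 of these lay above a ratio of 1, where 45.5% of all genes did. The 12 markers summed to 371 CPM in KO and 230 CPM in WT. Muc1, Cd24a, Krt19 and Epcam were 5.57-fold, 4.37-fold, 4.24-fold and 2.17-fold higher, and Sox9 and Onecut1 1.41-fold and 1.09-fold lower. The 13 genes of mucous epithelium summed to 330 CPM in KO and 10.4 CPM in WT. Of the 7 over the filter, Muc4, Spink4 and Tff2 passed it through KO alone, with 80, 98 and 62 reads there and 0, 1 and 4 in WT, so no count of directions is given. Dmbt1 alone had 274 CPM in KO and 1.01 CPM in WT, while Agr2 and Gkn1 had no read in either. Of 11 intestinal markers Cdx2, Muc2 and Reg3g were at 0 in both, and the list summed to 91.1 CPM in KO and 71.1 CPM in WT, mostly Fabp2 and Lgals4. Vil1, villin, had 76 reads in KO and 25 in WT, a ratio of 3.83 (2.41 to 6.29). S100g had 43 reads in KO and 1 in WT. Of 12 pancreatic acinar markers 7 were at 0 in both, among them Cpa1, Pnlip and Clps, and Ctrb1 had 297 reads in KO and none in WT. Cela1, the only other pancreatic gene over the filter, went the other way, with 328 reads in KO and 521 in WT, 1.26-fold lower (1.09 to 1.45). The sums of that list were 40.3 CPM in KO and 26.6 CPM in WT, and Ctrb1 alone made up 18.9 CPM of the KO sum. Cldn7 and Ocln, which ducts and mucous epithelia also express, stood on the same side as the duct and mucous sums, and Cldn4, which they express too, on the other. The part of such cells in the values of Ocln, Cldn7 and Cldn4 was not tested.

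Hepatocyte markers were above a ratio of 1 in 11 of 12, and in 9 of 12 with the correction. Of all genes 45.5% were above 1, and 50.1% with the correction. The hepatocyte markers had a median log2 ratio of 0.41, beside 0.35 for the tight junction genes. With the correction the order turned round, to 0.39 for the hepatocyte markers and 0.64 for the tight junction genes. All 9 Kupffer cell markers were below a ratio of 1, with and without the correction, and summed to 545 CPM in KO and 1299 CPM in WT. Of 9 stellate and mesothelial markers over the filter 7 were below a ratio of 1, where 45.5% of all genes were above. With the correction 5 were below, where 50.1% of all genes were above. That list summed to 785 CPM in KO and 845 CPM in WT. Cldn3 shares 40 exon bases, 3.18% of its length, with the antisense gene Wbscr25, which had 7 reads in KO and 5 in WT. No other gene of the 9 shares exon bases with another gene in the annotation.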

How the data were processed

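The submitters' processing notes name GRCm38 as the build, with HTSeq 0.6.1 and TopHat2 as tools; annotation release and strand setting are not given. The deposited files are named for FPKM, but the authors' values are whole-number read counts per gene, with no normalization, and were used as counts. Of 52845 entries, 209 without an Ensembl gene (0.496% of reads in KO, 0.652% in WT) were left out, and 147 genes not in GENCODE M21 kept their reads in the totals only. CPM used the sum over Ensembl genes. FPKM was computed here from exon-union lengths, which may differ from those of the annotation used for counting.

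With 1 pooled library per genotype no test was made. Ratios are of CPM with nothing added, and their 95% intervals are exact Clopper-Pearson intervals of the KO share of a gene's reads in both libraries, rescaled by the totals; reads are not independent molecules, and intervals cover counting error only. Quotients of 2 genes carry exact conditional intervals and are not corrected for GC content or length. The 10 pairs were chosen after values were seen. A call was a 2-fold ratio at a mean of 1 CPM. The GC and length correction took from each gene the median log2 ratio of its bin (10 bins of GC by 4 of length, using genes of at least 100 reads).

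The genes followed and the lists were chosen with earlier results of these data known. Named genes were all 9, Gbp5, claudins with 20 reads or more, the 2 highest, 2 lowest and 2-fold genes of described lists and the nearest genes; Cdh5, F11r, Lsr, Tjp3, Cgn, Mpp5, Grhl2, Elf3, Snai1, Zeb2 and Hnf4a were named beyond it for their roles, after values were seen. Of the marker lists, not every gene the rule names is printed, and a few listed genes are not reported here. Steps were tested on simulated counts with counting error only, without a GC or length trend or differences between animals. Such counts cannot show how the correction or the intervals perform on these data. Tools were Python 3.11.15, numpy 2.4.6, pandas 2.3.3, scipy 1.17.1 and, for TMM factors alone, edgeR 4.0.16 in R 4.3.3.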

Additional observations from a re-analysis of the deposited data

How the results depend on the processing

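No paired analysis was possible because each genotype is 1 pooled library. For the 9 genes and 7 alternatives (median of ratios, TMM, totals without the 50 most abundant or the mitochondrial genes, pseudocounts of 0.5 CPM and 1 FPKM, GC and length correction), 60 of 63 log2 ratios stayed inside the gene's counting interval. The others were Cldn3 and Cldn14 with the correction, at 0.64 and 1.05, and Ocln with 1 FPKM added, at 1.003. Only Cldn1 changed sign, with the correction.

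The count of the 9 genes at least 2-fold higher was 1, and 2 with totals without the 50 most abundant genes, which shifted the median of all genes by 0.10 and put Cldn2 at 1.003. It was 3 with the correction and 3 at 1.5-fold, where 10.9% of all genes were higher. None was lower under any of these, nor at 1.5-fold, where 24.3% of all genes were. Over all genes, 441 higher and 1589 lower became 105 and 696 with 1 FPKM added, 5023 and 5071 with no filter, 1464 and 3272 at 1.5-fold, 131 higher at a mean of 5 CPM, and 806 lower with the correction.

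The median of the 9 genes, 0.35, was 0.64 with the correction and stayed within 0.2 of its value under the other scalings, pseudocounts and filters, and without Ocln, Cldn2 or Cldn7, a choice made after seeing the data. With the correction the medians were -0.19 for other claudins, 0.066 for plaque, 0.081 for adherens and 0.49 for desmosome genes. Other claudins had 0.43 with no filter and -0.61 at a mean of 5 CPM, where fewer genes remain. The cause of the shifts with the correction was not tested. Read depth limits Cldn1, Cldn7 and Ocln most, with 226, 199 and 235 reads in both libraries together.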

Other observations

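Transcription factors known to act on epithelial junction genes were on both sides. Ovol1, an epithelial zinc finger repressor, had 163 reads in KO and 29 in WT, a ratio of 7.09 (4.75 to 10.9). Grhl1 and Grhl2, Grainyhead factors of which the second is known to act on Cldn4 in mouse, had 34 and 32 reads in KO and 16 and 21 in WT. Their ratios were 2.68 (1.44 to 5.20) and 1.92 (1.07 to 3.51), and 2.73 and 2.39 with the correction. Elf3 was 1.52-fold higher (1.38 to 1.69), and 1.80-fold higher with the correction.

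Factors known to repress claudins or occludin in epithelial cells were also measured. Snai2 had 73 reads in KO and 34 in WT, a ratio of 2.71 (1.78 to 4.196), while Snai1 had 129 and 186, a ratio of 0.875 (0.693 to 1.10). Zeb1 and Zeb2 were 1.51-fold and 1.43-fold lower, and Twist1 had 7 reads in KO and 46 in WT, 5.21-fold lower (2.34 to 13.7). Hnf4a, which acts in hepatocytes, had a ratio of 1.09, and of 1.57 with the correction. Of the 14 genes listed, 12 were over the filter. Grhl1 passed it through KO alone, at 2.16 CPM there and 0.805 CPM in WT. Twist1 passed it through WT alone, at 0.444 CPM in KO and 2.32 CPM in WT. No count of calls is therefore given for this list. With the correction Snai1 changed sides, to a ratio of 1.23, and Zeb1 and Zeb2 were 1.55-fold and 1.71-fold lower.

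Among proteins that act with EpCAM and claudin-7, Spint1, an inhibitor of the protease matriptase, had 83 reads in KO and 53 in WT, a ratio of 1.98 (1.38 to 2.84). The matriptase gene St14 had 111 reads in KO and 117 in WT, a ratio of 1.20 (0.914 to 1.56), and Spint2 had a ratio of 1.03. With the correction the ratios of Spint1, St14 and Spint2 were 2.77, 1.17 and 1.05. Spint1 was then past 2-fold, where 3.87% of all genes were higher.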
